A study of Mus musculus with 6 samples.

Results

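The matrix metalloproteinases (MMPs), the ADAMTS proteases and the tissue inhibitors of metalloproteinases (TIMPs) were examined in the nasomaxillary complex, the bone, cartilage and soft tissue of the nose and upper jaw, of E17.5 mouse embryos. The 39 genes are a named list of 17 MMPs, 18 ADAMTS genes and 4 TIMPs, all found among the 24346 gene symbols measured. The list does not hold every gene of these families: Mmp20, Mmp21, Mmp25, Mmp27 and Adamts13 are described with the partner genes, and sums over a family cover the listed genes only. Messenger RNA was sequenced in 6 libraries. The 3 control libraries came from embryos with both copies of Pth1r, the receptor gene for parathyroid hormone and its related protein, floxed (Pth1r f/f). The 3 mutant libraries carried the same floxed alleles plus Wnt1-Cre, a transgene active in the neural crest and its descendants, which form most of the facial skeleton. No embryo was treated. The controls carry no Cre, so loss of Pth1r cannot be told apart from an effect of the transgene. No label ties a library to its own embryo or litter, and the p-values therefore measure only the spread between these 6 libraries, which may be technical. The whole dissected block was sequenced, so fewer cells of a type and less RNA per cell cannot be told apart.

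MMPs and ADAMTS enzymes are zinc-dependent proteases that act on the extracellular matrix. MMPs cut collagens, gelatin and many other proteins, most are made as inactive precursors, and some are anchored in the cell membrane. ADAMTS enzymes are secreted and include the aggrecanases, which cut the large proteoglycans of cartilage, and the N-propeptidases, which trim procollagens before fibrils form. TIMPs bind the active sites of these enzymes and block them. In a growing skeleton, cartilage that is being replaced by bone is opened up by MMP13 from late chondrocytes and osteoblasts, MMP9 from osteoclasts and MMP14 on the cell surface.

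The libraries differed in composition. Total FPKM (fragments mapped to a gene, scaled to its transcript length and to the library's mapped fragments) ran from 514693 to 546322 per library. The spacing of low values put relative library sizes between 0.938 and 1.11 in control and between 0.671 and 1.02 in mutant, with mutant replicate 3 the smallest. Cartilage and bone markers were plainly present, with Col2a1 at 608 to 783 FPKM in control and 131 to 259 FPKM in mutant and Ibsp at 738 to 1062 and 780 to 995 FPKM. Xist lay between 74.1 and 77.1 FPKM in the 3 controls and mutant replicate 1 and was at most 0.0295 FPKM in mutant replicates 2 and 3, which alone expressed Y-linked genes. The controls were therefore all female and the mutants 1 female and 2 male by expression. Skeletal muscle markers summed to 260.02 to 441 FPKM in control and 381 to 997 FPKM in mutant, highest in mutant replicate 2. The ranges of these sums overlapped. Of the log2 changes 8 of 8 were positive, against 49.2% of all tested genes, and 0 were called. Groups did not overlap for 4 of the 8, all higher in mutant, against 7.85% of all tested genes. Markers of skin and oral epithelium, 6 genes such as Krt5, summed to 594 to 1464 FPKM in control, lowest in control replicate 3, and to 1667 to 1772 FPKM in mutant. For all 6 of them every mutant library was above every control library, against 7.85% of all tested genes. An unadjusted limma p under 0.05 was reached by 5, all higher in mutant, against 5.35% of all tested genes. Of the 6, 0 were called, against 0.061% of all tested genes called higher.

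A group of 6 of the MMP genes lies in one cluster on chromosome 9, which also holds Mmp1b, and their promoters are shown first because these neighbours differed so widely in level. Mmp13, Mmp12, Mmp3, Mmp10, Mmp8 and Mmp7 are on the plus strand between 7272514 and 7699585 (GRCm38, the build of the files under its other name, mm10). Mmp13, which encodes a collagenase, measured 34.0 to 116 FPKM over the 6 libraries. Mmp8, a second collagenase known from neutrophils, measured 0.877 to 1.35 FPKM, and Mmp3, stromelysin 1, 0.173 to 0.531 FPKM. Mmp7, Mmp10 and Mmp12 were listed at 0 in 5, 5 and 4 of the 6 libraries and reached at most 0.234, 0.0511 and 0.0308 FPKM. Within the cluster, then, only Mmp13 was above 2 FPKM in any library. The sequences below are the 250 bases before the RefSeq start of transcription (GRCm38.p6, 5′ to 3′). Capitals mark matches, on either strand, to the AP-1 motif TGAGTCA and the RUNX motif TGTGGT, both families of factors known for MMP13. Timp1 is added because it, like Mmp13, was lower in every mutant library than in every control library.
Mmp13 promoter, chr9:7272264-7272513, plus strand: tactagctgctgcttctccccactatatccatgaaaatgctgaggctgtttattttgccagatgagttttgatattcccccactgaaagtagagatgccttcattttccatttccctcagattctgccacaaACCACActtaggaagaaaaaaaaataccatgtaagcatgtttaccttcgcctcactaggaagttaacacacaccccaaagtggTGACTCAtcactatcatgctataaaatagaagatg
Mmp3 promoter, chr9:7445572-7445821, plus strand: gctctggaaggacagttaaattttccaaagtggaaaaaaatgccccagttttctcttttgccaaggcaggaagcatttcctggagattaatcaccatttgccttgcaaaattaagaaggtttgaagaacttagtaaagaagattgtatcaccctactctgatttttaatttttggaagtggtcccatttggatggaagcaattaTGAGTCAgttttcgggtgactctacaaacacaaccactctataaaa
Mmp8 promoter, chr9:7558179-7558428, plus strand: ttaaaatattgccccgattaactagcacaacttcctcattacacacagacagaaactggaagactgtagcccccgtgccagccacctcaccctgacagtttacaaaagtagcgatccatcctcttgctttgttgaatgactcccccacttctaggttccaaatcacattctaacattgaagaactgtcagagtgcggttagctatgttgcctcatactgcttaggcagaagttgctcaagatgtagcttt
Timp1 promoter, chrX:20869916-20870165, plus strand: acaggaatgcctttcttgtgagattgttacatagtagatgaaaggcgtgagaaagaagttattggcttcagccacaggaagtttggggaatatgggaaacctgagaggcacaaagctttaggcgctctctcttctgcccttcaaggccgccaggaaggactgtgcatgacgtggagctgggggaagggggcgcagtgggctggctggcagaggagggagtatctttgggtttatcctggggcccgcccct
Promoters were listed for 25 of the 39 genes. An AP-1 match was found in 5 of these 25, all of them in the chromosome 9 cluster (Mmp13, Mmp12, Mmp3, Mmp10 and Mmp7), and in 4.46% of 32851 promoter windows of the same length. Mmp13 held its AP-1 match beginning 35 bases before the start and a RUNX match beginning 118 bases before it. RUNX matches were also found for Mmp7, Mmp14 and Mmp23, so in 4 of 25 genes, against 14% of all windows. For each motif a gene was counted if any of its windows matched, and Mmp7 has more than 1. The share of genes and the share of windows are therefore unlike measures. The cyclic AMP response element TGACGTCA, looked for because the receptor signals through cyclic AMP, had 0 matches in the 25 genes and was in 1.55% of all windows. The windows of Mmp8 and Timp1 held none of the 3 motifs in the exact letters given, and variants of those letters were not searched. Genes with and without an AP-1 match were both found at low levels.

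The levels of the 39 genes spanned from nearly no signal to over 200 FPKM, and a few genes carried most of each family. FPKM is scaled to gene length, so levels can be set side by side between genes. Mmp2, Mmp14, Mmp9 and Timp2 averaged 100 FPKM or more over the 6 libraries. Another 4, Timp3, Adamts10, Timp1 and Mmp13, lay between 50 and 100 FPKM, 8 between 10 and 50 FPKM and 16 between 1 and 10 FPKM. The remaining 7, Mmp3, Mmp7, Mmp10, Mmp12, Mmp19, Mmp24 and Adamts16, had means under 1 FPKM and were not tested. Of the MMP total, 88.8% to 91.9% in control and 88.4% to 89.7% in mutant came from Mmp2, Mmp9, Mmp13 and Mmp14. Adamts10 alone gave 31.4% to 34.2% and 31.9% to 34.9% of the ADAMTS total.

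**Figure D1:**
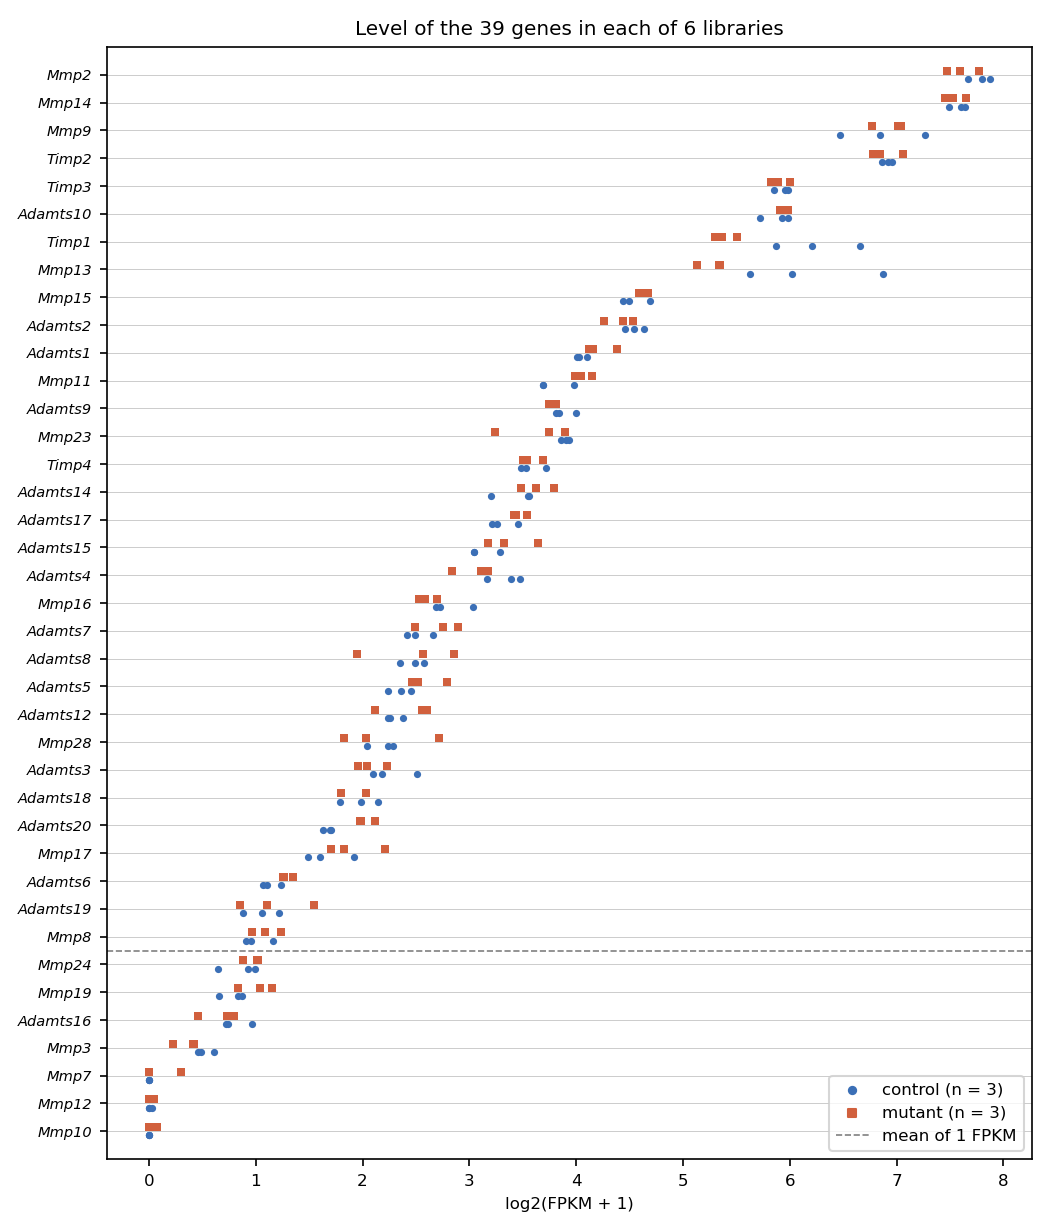
Level of each of the 39 genes, one row per gene ordered by its mean, as log2(FPKM + 1) in the 3 control (circles) and 3 mutant (squares) libraries. The dashed line divides the 32 genes averaging 1 FPKM or more from the 7 below it, and the squares of Timp1 and Mmp13 lie to the left of all their circles.

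The comparison asked whether messenger RNA of these proteases and inhibitors differed between mutant and control tissue. None of the 32 tested genes passed a limma adjusted p under 0.05, in a family of 14766 tested genes of which 39, or 0.264%, passed (0.203% lower and 0.061% higher in mutant). Timp1 and Mmp13 had the lowest mutant values relative to control, at 0.534 and 0.494 of the control mean, and in both genes every mutant library was below every control library. Adamts20, Mmp11, Adamts1, Adamts5 and Adamts6 had every mutant library above every control library, by much smaller amounts. Groups did not overlap for these 7 of 32 genes, 5 higher and 2 lower, against 17% of all tested genes (7.85% higher and 9.16% lower). An unadjusted limma p under 0.05 was reached by 5 of 32 genes, 3 lower and 2 higher, against 11.3% of all tested genes (5.96% lower and 5.35% higher). These are 21.9% and 15.6% of the 32, close to the background. The median log2 change was 0.034 over the 32 genes and -0.0020 over all tested genes, with 17 changes positive and 15 negative, against 49.2% positive over all tested genes. All 32 tested genes had a mean of at least 1 FPKM in each group, so none entered the test through 1 group alone. Each log2 change below is a difference of log2(FPKM + 1), mutant minus control, given ± SE; adding 1 makes the change of a gene at low FPKM look smaller.

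**Figure D2:**
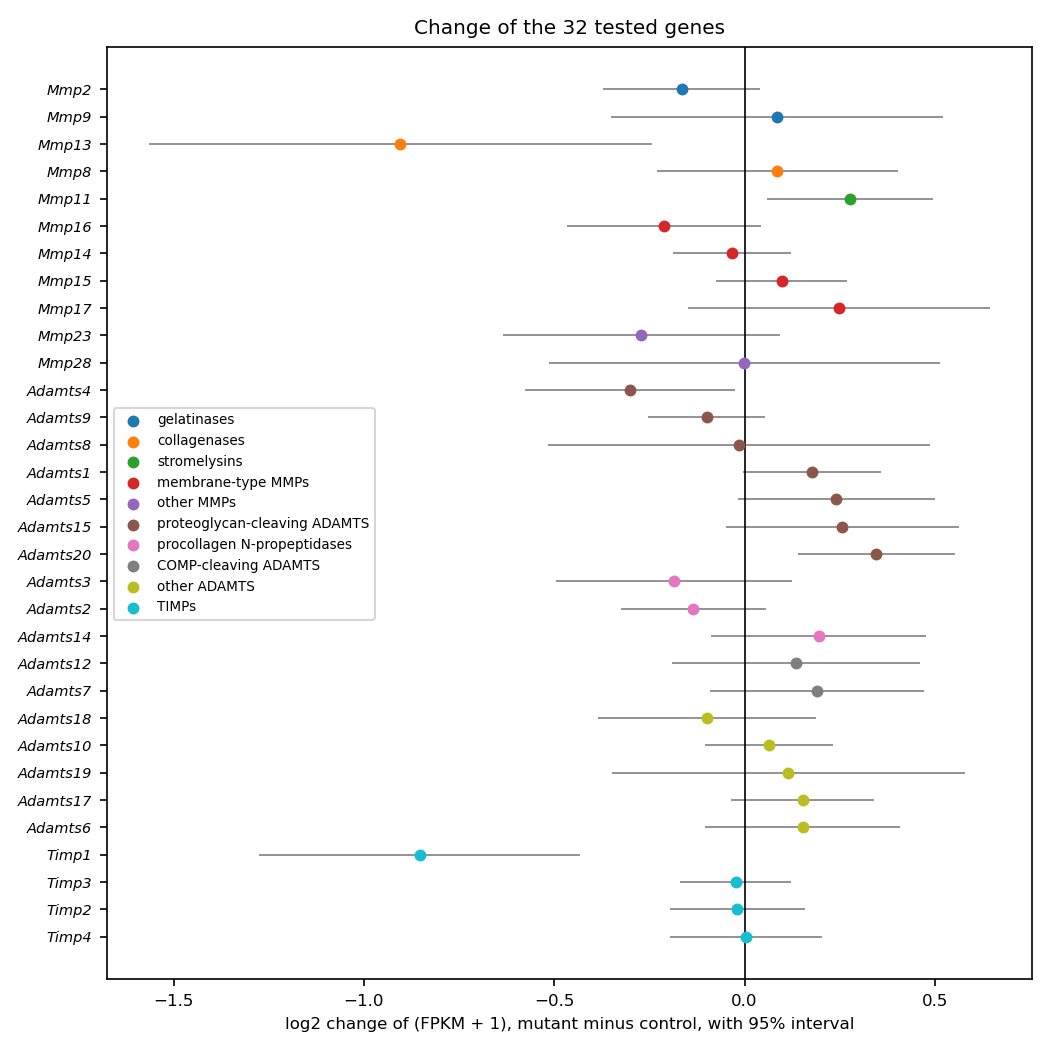
Log2 change of (FPKM + 1), mutant minus control, for the 32 tested genes (rows), coloured by subfamily, with 95% intervals from limma that are not adjusted for the number of genes. Mmp13 at -0.90 and Timp1 at -0.85 lie farthest from 0, and all other points lie between -0.30 and 0.35.

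Among the inhibitors, Timp1 was the only one whose groups did not overlap. Timp1 (chromosome X, 20870166 to 20874735, plus strand, GRCm38), a secreted inhibitor of most soluble MMPs, was at 72.9, 57.5 and 99.96 FPKM in the controls, in replicate order, and at 38.4, 40.3 and 44.4 FPKM in the mutants. The controls ranged far more widely than the mutants. The means were 76.8 ± 21.5 and 41.0 ± 3.07 FPKM (SD, n = 3 each), a control mean 1.87 times the mutant mean. The log2 change was -0.85 ± 0.18 with a limma adjusted p of 0.172, so the difference did not pass the threshold. Mutant replicate 1, the female one, had the lowest of the 6 values of this X-linked gene. With sex as a covariate the log2 change was -0.95 with a limma adjusted p of 0.898. Timp1 lies inside Syn1, which runs on the other strand and measured 2.28 to 3.91 FPKM, and whether reads were counted by strand is not given.

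Timp2, which besides inhibiting MMPs takes part in activating the MMP2 precursor, measured 123, 115 and 120.1 FPKM in control and 114, 132 and 109 FPKM in mutant. Timp3, which binds to the matrix and also inhibits aggrecanases, measured 56.9, 61.0 and 62.4 FPKM and 55.8, 63.2 and 58.3 FPKM. Timp4 measured 10.2, 10.5 and 12.2 FPKM and 10.3, 10.7 and 11.9 FPKM. In these 3 genes the groups overlapped. Their log2 changes were -0.019, -0.024 and 0.0032, with 95% intervals of -0.20 to 0.16, -0.17 to 0.12 and -0.20 to 0.20 in that order. The interval of Timp1 was -1.28 to -0.43; the difference between inhibitors was not tested. The share of Timp1 in the summed FPKM of the 4 TIMPs was 27.7%, 23.5% and 33.9% in control and 17.6%, 16.4% and 19.9% in mutant. Timp2 took the largest share in every library, 40.8% to 47.2% in control and 48.7% to 53.6% in mutant.

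Of the collagenases and gelatinases, Mmp13 differed most and Mmp9 followed no group. Mmp13 (chromosome 9, 7272514 to 7283331, plus strand), a collagenase known from bone and from the last stage of cartilage, was at 64.0, 48.4 and 116 FPKM in the controls, in replicate order, and at 39.4, 34.0 and 39.6 FPKM in the mutants. The groups did not overlap, but control replicate 3 was far above the other controls. The means were 76.2 ± 35.5 and 37.7 ± 3.22 FPKM (SD, n = 3 each), and the coefficient of variation was 46.6% in control and 8.55% in mutant. The log2 change was -0.90 ± 0.28 (limma adjusted p = 0.318), and it was -0.55 without control replicate 3. Mmp8 had means of 1.02 ± 0.196 and 1.14 ± 0.202 FPKM (SD, n = 3 each), a log2 change of 0.085.

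Mmp2, gelatinase A of mesenchymal cells and the most abundant of the 39 transcripts, measured 234, 202 and 222 FPKM in control and 192, 218 and 177 FPKM in mutant. Its log2 change was -0.17 ± 0.088, with overlapping groups, and it was -0.096 without mutant replicate 3. Mmp9 (chromosome 2, 164940780 to 164955850), gelatinase B, measured 114, 87.8 and 152 FPKM in control and 128, 108 and 131 FPKM in mutant. All 3 mutant values lay inside the range of the controls, and the log2 change was 0.085 ± 0.19. Mmp9 is known as an osteoclast product, and its order over libraries was that of the sum of 8 osteoclast markers, though not of each marker. Their summed level was 401, 313 and 519 FPKM in control and 408, 359 and 425 FPKM in mutant, with 4 of 7 tested changes positive, 0 called and no marker at 0 in all libraries. Mmp9 equalled 28.0% to 29.4% of that sum in control and 30.1% to 31.4% in mutant, a ratio formed after the values were seen.

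**Figure D3:**
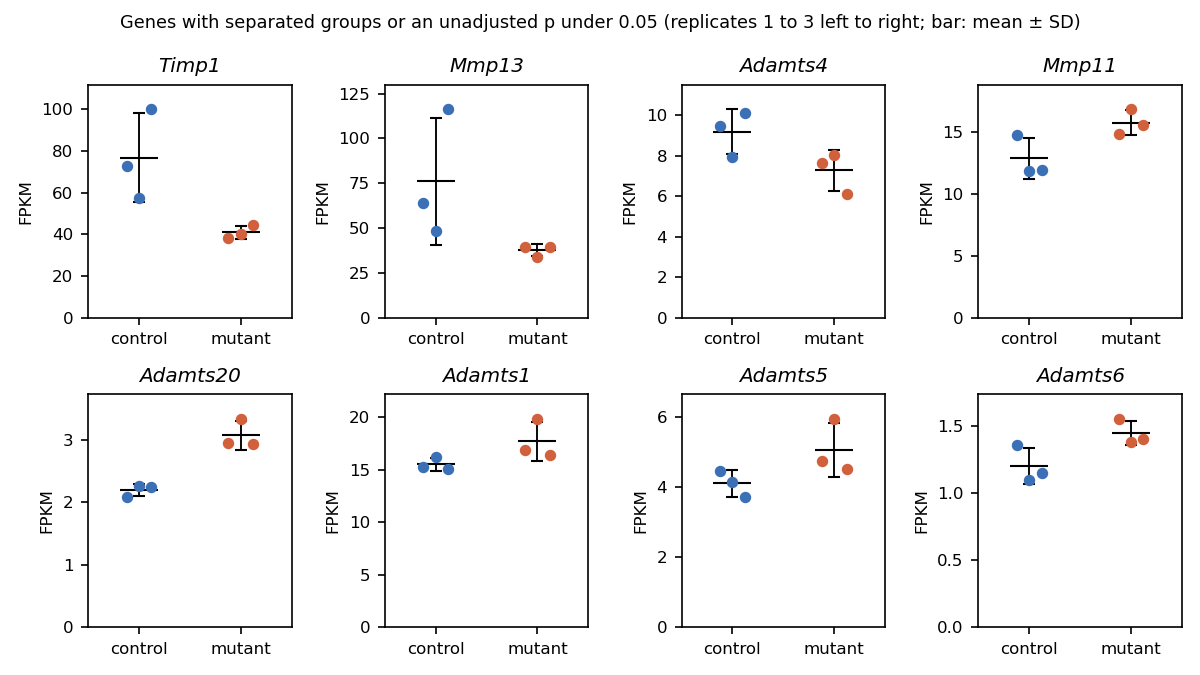
FPKM of 8 genes in each library (points, replicates 1 to 3 from left to right in each group) with mean and SD over 3 libraries, each axis starting at 0. These are the 7 genes whose groups do not overlap and Adamts4, whose groups do overlap. In Timp1 and Mmp13 the controls spread from 57.5 to 99.96 and from 48.4 to 116 FPKM, while the mutants stay within 38.4 to 44.4 and 34.0 to 39.6 FPKM.

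Control replicate 3 was the highest and control replicate 2 the lowest control library for Timp1, Mmp13 and Mmp9 alike. The same order was seen in the summed osteoclast, osteoblast and chondrocyte markers, though not in each marker, and the skin and oral epithelium sum was lowest in control replicate 3. Summed over 7 osteoblast markers, among them Ibsp, Spp1 and Bglap, the level was 2567, 1749 and 2956 FPKM in control and 1990, 1595 and 2136 FPKM in mutant. All 7 osteoblast changes were negative, 0 passed the threshold, and no marker was at 0 in all libraries. Groups did not overlap for 2, Bglap and Bglap2, both lower in mutant, against 9.16% of all tested genes. Relative to that sum Mmp13 was 2.49%, 2.77% and 3.93% in control and 1.98%, 2.13% and 1.86% in mutant. Timp1 was 2.84%, 3.29% and 3.38% of it in control and 1.93%, 2.53% and 2.08% in mutant. Neither ratio, both formed after the values were seen, overlapped between the groups. Both genes were singled out because their own groups did not overlap, so the ratios add no independent evidence. Spp1 and Ibsp were the largest terms of the sum, with control means of 1129 and 953 FPKM. Mutant means of Bglap and Bglap2 were 0.319 and 0.320 of control, below the 0.494 of Mmp13 and the 0.534 of Timp1. Those of the rest of the list were 0.657 to 0.939 of control, so the ratios depend on the markers summed. Chondrocyte marker changes were all negative, 8 of 8 with 5 called lower, against 0.203% of all tested genes called lower. Their sums were 1527, 1342 and 1629 FPKM in control and 359 to 652 FPKM in mutant. Of the 2 hypertrophic markers Col10a1 was called higher, against 0.061% of all tested genes. It measured 1.21 to 1.28 FPKM in control and 54.5 to 77.0 FPKM in mutant. Ihh measured 2.04 to 3.42 FPKM in control and 4.12 to 6.37 FPKM in mutant and was not called (limma adjusted p = 0.278). Both markers were thus higher in the libraries where Mmp13 was lower, Ihh by far less than Col10a1. The part of any of these cell types, epithelium included, in the values of Timp1 and Mmp13 was not tested.

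**Figure D4:**
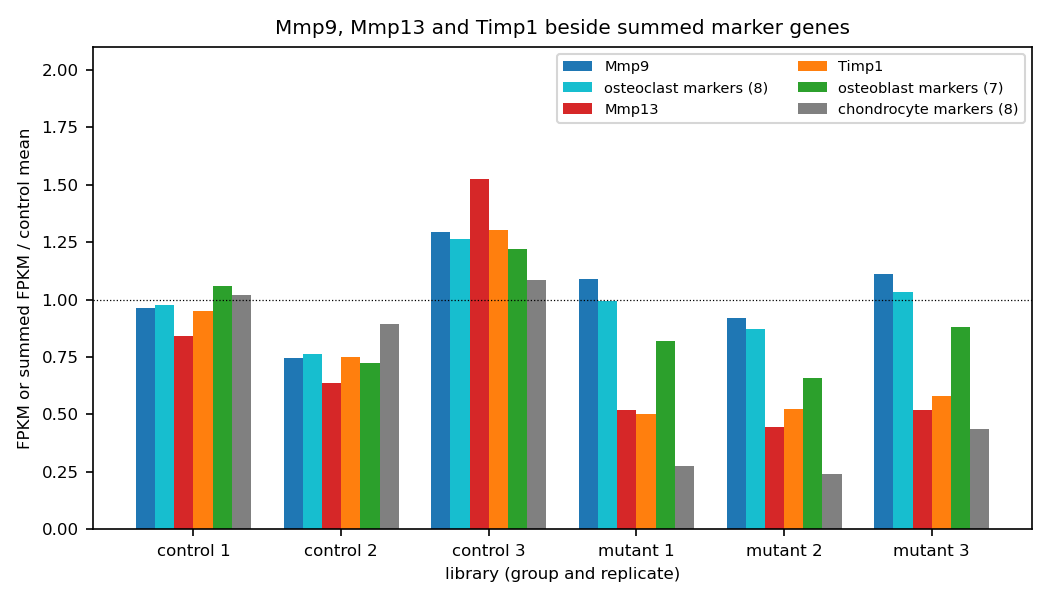
Level of Mmp9, Mmp13 and Timp1 and summed levels of osteoclast, osteoblast and chondrocyte markers in each library, each divided by its control mean (dotted line at 1). The Mmp9 and osteoclast bars stand near each other in all 6 libraries, and the Mmp13 and Timp1 bars lie under the osteoblast bar in the 3 mutant libraries.

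The membrane-type and remaining MMPs differed little. Mmp14 (chromosome 14, 54431612 to 54445364, plus strand), a membrane-anchored collagenase and activator of MMP2, measured 193, 179 and 199 FPKM in control and 184, 199 and 175 FPKM in mutant. Its log2 change was -0.033, with a 95% interval of -0.19 to 0.12. Mmp15, another membrane-type enzyme, measured 21.5, 24.8 and 20.7 FPKM and 24.4, 24.1 and 23.0 FPKM, with overlapping groups. Mmp16 had means of 6.08 ± 0.980 and 5.08 ± 0.355 FPKM and Mmp17 of 2.204 ± 0.514 and 2.82 ± 0.718 FPKM (SD, n = 3 each), with log2 changes of -0.21 and 0.25 that were not called. Mmp11, stromelysin 3, which is activated inside the cell and is known from stromal fibroblasts, measured 14.8, 11.9 and 11.9 FPKM in control and 14.8, 16.8 and 15.5 FPKM in mutant. Its groups nearly touched, with control replicate 1 at 14.76 and mutant replicate 1 at 14.84 FPKM, and the log2 change was 0.28 ± 0.093 (limma adjusted p = 0.339). In the annotation Mmp11 overlaps Chchd10, which runs on the other strand at 49.4 to 58.3 FPKM. Mmp23, an MMP with an unusual membrane anchor, measured 14.0, 14.3 and 13.5 FPKM in control and 12.4, 13.9 and 8.48 FPKM in mutant. Mutant replicates 1 and 3 were below every control, replicate 3 by far the most, while mutant replicate 2 lay among the controls. The log2 change was -0.27 ± 0.15, and -0.079 without mutant replicate 3. Mmp28, epilysin, had means of 3.57 ± 0.398 and 3.73 ± 1.61 FPKM (SD, n = 3 each).

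Among the 7 proteoglycan-cleaving ADAMTS genes, 4 had positive and 3 negative changes, and none was called. Adamts20 (chromosome 15, 94270163 to 94465418, minus strand), a versican-cleaving enzyme known for its role in coat pigment cells and the palate, measured 2.09, 2.26 and 2.25 FPKM in control and 2.95, 3.33 and 2.93 FPKM in mutant. The groups were clearly apart, with a mutant mean 1.40 times the control mean. The log2 change was 0.35 ± 0.088 (limma adjusted p = 0.247), the smallest p of the ADAMTS genes. Adamts1 and Adamts5, neighbours on the minus strand of chromosome 16 with 53.1 kilobases between them, were both higher in every mutant library. Adamts1 measured 15.3, 16.2 and 15.1 FPKM in control and 16.9, 19.8 and 16.4 FPKM in mutant. Adamts5, a main aggrecanase of mouse cartilage, measured 4.47, 4.15 and 3.71 FPKM in control and 4.73, 5.93 and 4.51 FPKM in mutant. The gaps between their groups were small, and the log2 changes were 0.18 ± 0.077 and 0.24 ± 0.11 (limma adjusted p = 0.449 and 0.469).

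Adamts4, the other well-known aggrecanase, pointed the other way from Adamts5. It measured 9.47, 7.95 and 10.1 FPKM in control and 7.64, 8.06 and 6.13 FPKM in mutant, with mutant replicate 2 above control replicate 2. The log2 change was -0.30 ± 0.12 (limma adjusted p = 0.408), and it was -0.20 without mutant replicate 3. Adamts9, a widely expressed versican-cleaving enzyme, measured 13.3, 14.96 and 13.0 FPKM in control and 12.8, 12.5 and 13.0 FPKM in mutant. Adamts15 and Adamts8, which lie 20.1 kilobases apart on chromosome 9, had log2 changes of 0.26 ± 0.13 and -0.015 ± 0.21, with overlapping groups in both. Adamts15 had means of 7.76 and 9.53 FPKM and Adamts8 of 4.56 and 4.67 FPKM in control and mutant. Acan, the aggrecan gene whose product these enzymes cut, was called lower, at 65.7 to 73.1 FPKM in control and 23.1 to 35.4 FPKM in mutant. Vcan, the versican gene, named after its values were seen, measured 36.9 to 44.3 FPKM in control and 46.3 to 63.5 FPKM in mutant and was not called (limma adjusted p = 0.296).

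The procollagen N-propeptidases had log2 changes of both signs, and none was called. Adamts2, which trims the main fibrillar collagens, measured 22.3, 21.0 and 23.8 FPKM in control and 20.7, 22.1 and 18.2 FPKM in mutant. Adamts3 had means of 3.84 ± 0.762 and 3.24 ± 0.415 FPKM (SD, n = 3 each). Adamts14 measured 10.8, 8.22 and 10.7 FPKM in control and 11.3, 12.9 and 10.2 FPKM in mutant. The groups overlapped in all 3 genes, and the log2 changes were -0.13, -0.19 and 0.19. Their 95% intervals, -0.33 to 0.056, -0.50 to 0.13 and -0.088 to 0.48, all include 0, so no direction was established. Summed, they gave 36.1 ± 3.41 FPKM in control and 35.0 ± 3.01 FPKM in mutant (SD, n = 3 each).

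Of the remaining ADAMTS genes, Adamts10, which acts in fibrillin microfibrils, was by far the most abundant. It measured 62.2, 51.9 and 59.96 FPKM in control and 60.5, 62.1 and 58.9 FPKM in mutant, a log2 change of 0.064 with a 95% interval of -0.11 to 0.23. Its close relative Adamts6 measured 1.35, 1.10 and 1.15 FPKM in control and 1.55, 1.38 and 1.40 FPKM in mutant. Its lowest mutant value was just above its highest control value, and the log2 change was 0.15 ± 0.11 (limma adjusted p = 0.660). Adamts7 and Adamts12, which cut cartilage oligomeric matrix protein, had control and mutant means of 4.76 and 5.60 FPKM and of 3.90 and 4.44 FPKM, log2 changes of 0.19 and 0.13. Adamts17 had means of 8.95 and 10.04 FPKM, Adamts18 of 2.94 and 2.68 FPKM and Adamts19 of 1.08 and 1.29 FPKM, changes of 0.15, -0.099 and 0.11. None of these 5 was called, and their groups overlapped.

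The highest mutant value of a gene often fell in mutant replicate 2, the library with the most muscle marker signal. This was so for 22 of the 32 tested genes, against 36.5% of all tested genes, and for 16 of them it was the highest of all 6 libraries, against 21.4% of all tested genes. Among the 5 genes with separated, higher mutant values it held for 4, all but Adamts6. Without mutant replicate 2 the log2 changes were 0.30 for Adamts20, 0.23 for Mmp11, 0.098 for Adamts1 and 0.14 for Adamts5. The part of muscle content in these values was not tested. Of the 4 tendon and fibroblast markers, Dpt was higher in every mutant library, at 8.51 to 13.96 FPKM in control and 23.1, 44.0 and 14.6 FPKM in mutant. Such separation, higher in mutant, was seen for 7.85% of all tested genes, and Dpt was not called (limma adjusted p = 0.343). The groups of Scx, Tnmd and Pdgfra overlapped, with a median log2 change of 0.019 over the list. Dpt, Scx and Tnmd, but not Pdgfra, were highest in mutant replicate 2. Summed tendon and fibroblast, Schwann cell, macrophage and endothelium markers were also highest there, at 106, 47.1, 213 and 134 FPKM. Sums of neuron, neutrophil, osteoclast, osteoblast, cartilage and epithelium markers were not. The part of these cell types was not tested either.

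**Figure D5:**
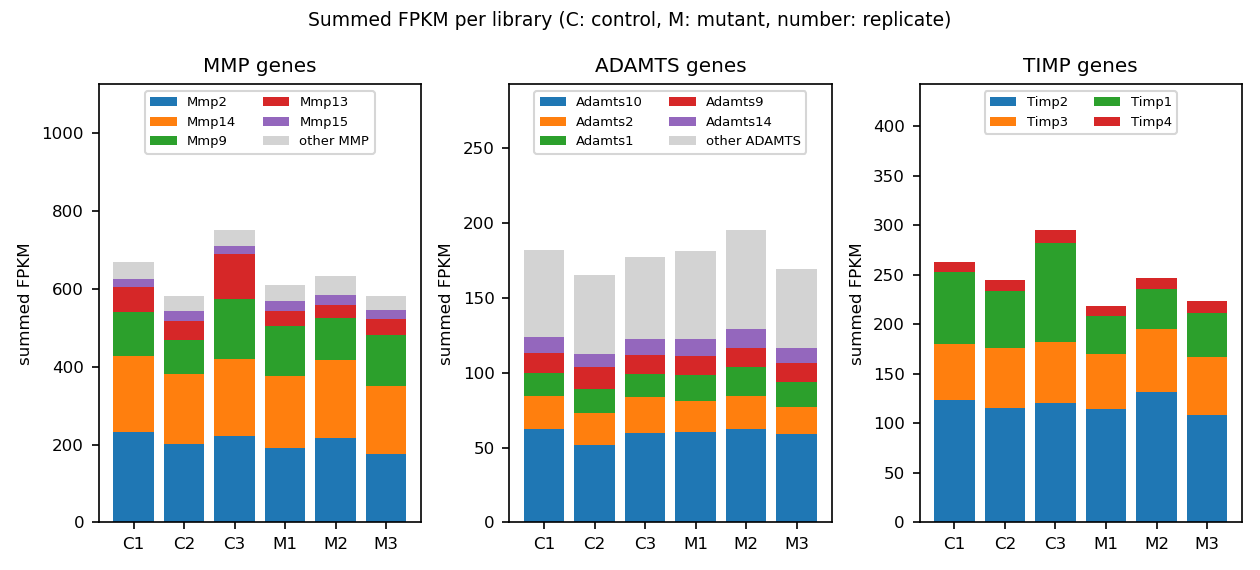
Summed FPKM of the MMP, ADAMTS and TIMP genes in each library (C control, M mutant, with the replicate number), with the most abundant genes coloured and the rest in grey. Summed MMP FPKM runs from 582 to 750.02 in control and 582 to 633 in mutant, and the Timp1 segment is narrower in all 3 mutant bars.

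Summed over each family the groups stayed close. MMP genes together gave 667 ± 83.8 FPKM in control and 608 ± 25.4 FPKM in mutant, ADAMTS genes 175 ± 8.70 and 182 ± 12.9 FPKM, and TIMP genes 267 ± 25.4 and 229 ± 14.7 FPKM (SD, n = 3 each). The MMP sum divided by the TIMP sum was 2.54, 2.38 and 2.55 in control and 2.79, 2.57 and 2.61 in mutant. The lowest mutant ratio was just above the highest control ratio, and no test was made of a sum over chosen genes. Mmp13 over Timp1 was 0.879, 0.841 and 1.16 in control and 1.03, 0.842 and 0.893 in mutant, so the ratio of these genes overlapped between the groups.

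The genes under 1 FPKM could not be compared with any precision. Mmp3 measured 0.531, 0.399 and 0.377 FPKM in control and 0.173, 0.343 and 0.329 FPKM in mutant. Its groups did not overlap, but at this level few fragments stand behind each value, and in a fit with no filter its log2 change was -0.16 (limma adjusted p = 0.559). Mmp19 had means of 0.727 and 1.02 FPKM, Mmp24 0.819 and 0.962 FPKM, and Adamts16 0.760 and 0.589 FPKM in control and mutant. Markers of neutrophils, a source of MMP8 and MMP9, summed to 135 to 149 FPKM in control and 167 to 174 FPKM in mutant. Of 6 tested changes 5 were positive, against 49.2% of all tested genes, and 0 were called. Among the tested markers, groups did not overlap for 2 higher and 1 lower in mutant, against 7.85% and 9.16% of all tested genes. The largest terms of the sum were Ltf, at 45.1 to 55.3 FPKM over the 6 libraries, S100a8 and S100a9. Which cells this signal came from was not tested. S100a8 was at 34.1 to 47.0 FPKM in control and 52.3 to 57.3 FPKM in mutant. S100a9 was at 35.2 to 47.0 and 52.4 to 64.0 FPKM. Camp and Ngp ran from 0.583 to 3.53 and from 1.26 to 5.18 FPKM, with overlapping groups. Elane was at 0 in 1 control library, and Mpo was at 0.0961 to 0.324 FPKM over the 6 libraries. Ctsg was at 0 in 2 controls, at most 0.0949 FPKM in control, and 0.133 to 0.296 FPKM in mutant. Prtn3, another granule protease gene, measured 3.35 to 4.15 FPKM in control and 2.63 to 3.08 FPKM in mutant, the 1 negative change of the list at -0.27, not called.

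Genes that work with these proteases were looked at as a list of 39 partners, which holds activators such as Furin, the inhibitor Reck, plasminogen activators, ADAM proteases and ADAMTS-like proteins, and also 5 MMP and ADAMTS genes that are not among the 39 members described above. Of the 33 tested, 20 had positive and 13 negative changes and 0 were called. An unadjusted p under 0.05 was reached by 5 of them and groups did not overlap for 9, which is 15.2% and 27.3% of the list, against 11.3% and 17% of all tested genes. Plaur, the receptor of urokinase, which starts a cascade that activates MMPs, had the smallest p of the list. It measured 5.76, 5.67 and 5.82 FPKM in control and 3.89, 4.40 and 3.36 FPKM in mutant, a log2 change of -0.47 with a limma adjusted p of 0.145. Adamtsl1, which encodes a protein like ADAMTS without the protease, had a change of 0.45, Pcolce, an enhancer of procollagen processing, -0.39 and Adam8 0.21. Adamts13, which cuts von Willebrand factor, measured 5.98, 5.93 and 5.95 FPKM in control and 6.55, 6.90 and 7.65 FPKM in mutant, so its groups did not overlap; it is named after its values were seen, and its log2 change of 0.21 was not called. Mmp20, Mmp21, Mmp25 and Mmp27 averaged under 1 FPKM, and Mmp27 was listed at 0 in all 6 libraries. Of 15 genes of matrix proteins that the enzymes act on, 14 were tested. Of these Col2a1, Acan and Fmod were called lower and Col10a1 was called higher, against 0.203% and 0.061% of all tested genes. Changes were positive for 6 and negative for 8. An unadjusted limma p under 0.05 was reached by 9 and groups did not overlap for 8. These are 64.3% and 57.1% of the 14, against 11.3% and 17% of all tested genes.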

How the data were processed

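Messenger RNA of 6 libraries, 3 control and 3 mutant by the genotype label, was analysed. Per the labels' protocols, extraction used TRIzol and library preparation a stranded mRNA kit. Per the submitters' processing notes, TopHat2 2.1.1, Bowtie2 2.2.8, SAMtools 0.1.18, Cuffdiff 2.2.1 and build mm10 were used. For the annotation and the strand setting the sources used here give nothing. Per the file headers, the values deposited by the authors are FPKM, 1 per gene symbol. Whether libraries were scaled to each other is not given.

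Values were analysed as log2(FPKM + 1) for the 14766 genes that averaged 1 FPKM or more, by limma 3.58.1 in R 4.3.3 (eBayes with trend, two-sided, 4 residual degrees of freedom), with p-values adjusted by Benjamini-Hochberg across every tested gene; calls needed an adjusted p under 0.05. The fit was also run on simulated data, and the outcome is not reported here. Relative depth came from ratios of values under 0.15 FPKM. With 3 libraries against 3, an exact permutation test cannot go below p = 0.10, so none was used. Intervals are at 95%.

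The members and lists were chosen with earlier results of these data known. Each member averaging 10 FPKM or more, or with an unadjusted p under 0.05 or groups that do not overlap is given in every library. Subfamilies follow textbook usage. Positions are from GENCODE M21 (GRCm38), and 19 of the 39 genes overlap another annotated gene; not every overlap is reported here. Sequences are from RefSeq (GRCm38.p6). As 17 alternatives, the pseudocount was set to 0.1 or 0.5, the filter was dropped or raised to 5 FPKM, and 3 scalings, eBayes without trend or robust, library weights, sex from Xist and Y-linked genes as a covariate, and the omission of each library in turn were tried. These last fits kept the genes of the main filter.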

Additional observations from a re-analysis of the deposited data

How the results depend on the processing

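No paired analysis was possible because the labels give no replicate numbers; those used here follow accession order and only name the libraries. None of the 32 tested genes was called in any of the 17 alternatives. The lowest limma adjusted p over them was 0.0983, for Timp1 with library weights, and Timp1 ranged up to 0.898 with sex as a covariate. Timp1 kept its direction and an unadjusted p under 0.05 in all 17 (log2 change -1.04 to -0.65). Mmp13 kept its direction in all 17 (-1.18 to -0.55) and an unadjusted p under 0.05 in 16. The exception was the fit with sex as a covariate, where its log2 change was -0.84. Adamts20 did so in 15 of 16 (0.30 to 0.46).

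The count of all genes called was 39. It was 18 with no filter, 19 without trend, 71 with library weights and 10 with sex as a covariate, and 15 to 44 when 1 library was left out (lowest without control replicate 2, with fewer samples in the fit). Genes of the 3 families with an unadjusted p under 0.05 numbered 5. There was 1 with sex as a covariate, and 3 (without control replicate 3) to 9 (without mutant replicate 3) when 1 library was left out. Groups that do not overlap numbered 7, then 4 at a mean of at least 5 FPKM, 8 with no filter (Mmp3 being added), 8 after quantile normalization and 7 to 14 when 1 library was left out (highest without mutant replicate 2), where fewer libraries make separation easier. The median log2 change of 0.034 became -0.045 with sex as a covariate, -0.019 at a mean of at least 5 FPKM and -0.023 to 0.087 when 1 library was left out. The cause of these shifts was not tested, apart from the genes that a filter removes or adds. The fit with sex sets 1 female mutant against 3 female controls.

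The sign turned for 10 genes with log2 changes of at most 0.11 in size, 28 times in all. With sex as a covariate the changes were -0.20 for Adamts19, 0.093 for Adamts8, -0.045 for Mmp8 and -0.073 for Timp4. With library weights they were 0.035 for Adamts8 and -0.035 for Timp4. Scaling gave 0.0034 (median ratio) and 7.0e-05 (upper quartile) for Mmp28, and quantile normalization 0.0015 for Timp2 and -0.0036 for Timp4. With 1 library left out the changes ran from -0.013 to 0.12 for Adamts10, -0.075 to 0.27 for Adamts19, -0.21 to 0.24 for Adamts8, -0.083 to 0.011 for Mmp14, -0.26 to 0.18 for Mmp28, -0.11 to 0.29 for Mmp9, -0.10 to 0.039 for Timp2, -0.072 to 0.016 for Timp3 and -0.052 to 0.076 for Timp4. Mutant replicate 3 has the smallest library, so values under 1 FPKM are least precise there.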
